A study of Mus musculus with 12 samples.

Results

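The 44 genes described here build and guard the protein-folding compartment of the cell, the endoplasmic reticulum (ER). They were taken by name from the 16411 genes of the deposited count table and cover 15 chaperones and folding enzymes, 4 sensors and signal carriers of the unfolded protein response, 9 degradation factors, 10 translocation subunits and 6 oligosaccharyltransferase subunits. All 44 were present in the table and passed the filter on low counts. The study compared 6 tumors of the mammary gland with 6 benign mammary samples. All mice were FVB females of the transgenic line MMTV-Neu-NDL-YD5, in which the MMTV promoter drives an activated HER2 that keeps a single tyrosine docking site, the YD site. Benign tissue was taken away from any visible tumor and from different mice than the tumors, and it carries the same transgene. Ages of single mice were not used here. Poly A RNA was sequenced, and total counts ranged from 5240853 to 8588567 per sample.

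Proteins that a cell secretes or places in its membranes enter the ER through the Sec61 channel, lose their signal peptide to signal peptidase, receive a sugar tree from oligosaccharyltransferase and fold with the help of chaperones, lectins and disulfide isomerases. Chains that do not fold are pulled back into the cytosol and degraded. When unfolded chains build up, the sensors IRE1, PERK and ATF6 start the unfolded protein response, in which IRE1 splices the mRNA of the transcription factor XBP1, PERK slows translation, and ATF6 is cut and moves to the nucleus to raise chaperone genes. In the mammary gland this system is best known from the milk-secreting epithelium.

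Most of the ER genes were higher in tumors, and 1 was lower. By edgeR's quasi-likelihood test with Benjamini-Hochberg adjustment over 13191 genes and a threshold of 0.1, 30 of the 44 were called higher, against 28.2% of all genes tested. Derl1 alone was called lower, where 34.8% of all genes were. The remaining 13 were not called. The median log2 fold change (tumor minus benign) of the 44 was 0.53, beside -0.06 over all genes tested. In 12 of the 44 genes every tumor lay above every benign sample, which 14.7% of all genes did, and Derl1 was below in every tumor, as were 21.2% of all genes. The share called higher was 12 of 15 chaperones, 4 of 4 sensors, 5 of 9 degradation factors, 5 of 10 translocation subunits and 4 of 6 oligosaccharyltransferase subunits. The largest rises were those of the degradation genes Derl3 and Sel1l, and the next that of Xbp1. Without tumor 5 the log2 fold change was 1.33 for Sel1l and 1.75 for Xbp1. The 9 degradation factors had a median log2 fold change of 0.29, beside 0.70 for the chaperones.

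**Figure D1:**
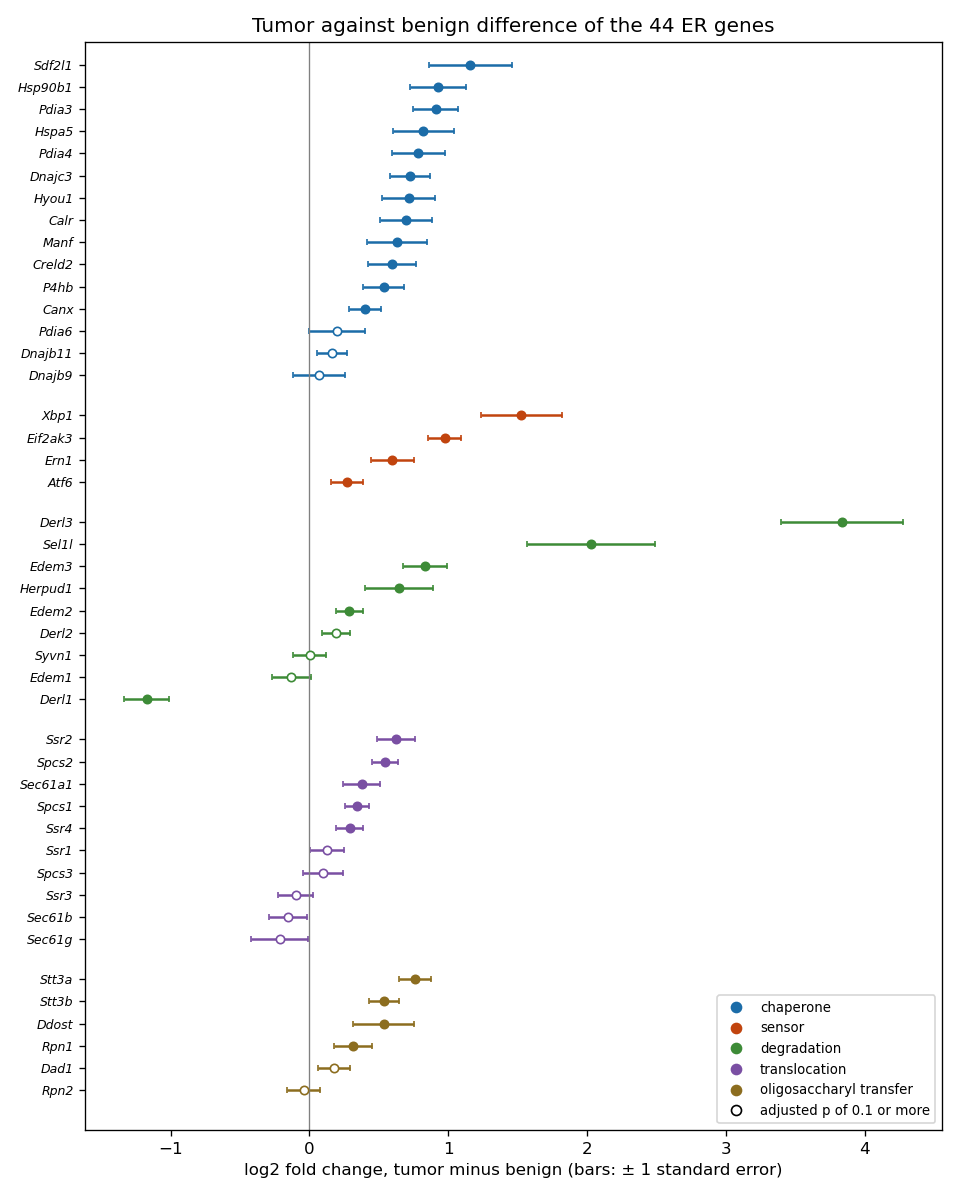
Points show the log2 fold change of each of the 44 genes, tumor minus benign, with bars of 1 standard error from edgeR (6 samples per group) and open circles where the adjusted p was 0.1 or more. Derl3 at 3.84 and Sel1l at 2.03 lie far to the right, and Derl1 at -1.17 is the single filled point left of 0.

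Benign tissue and tumors differed in their cell types, which bears on every value below. In bulk RNA, fewer cells of a type and less RNA per cell cannot be told apart. Of 8 epithelial markers, 6 were called higher and 1, Krt19, lower in tumors, and their summed level was 905 to 2460 CPM (counts scaled to library size with TMM factors) in benign samples and 2657 to 4368 CPM in tumors. All 6 white adipocyte, 5 myoepithelial, 5 fibroblast and 4 endothelial markers and 3 of 4 macrophage markers were called lower in tumors, and myoepithelial markers summed to 232 to 494 CPM in benign samples and 9.18 to 60.8 CPM in tumors. Skeletal muscle markers summed to 34434 to 88684 CPM in benign 3, 4 and 6, to 15.9 to 359 CPM in the other benign samples, and to at most 149 CPM in tumors, in tumor 5. Brown fat markers reached 2955 CPM in benign 4 and 807 CPM in benign 6, and B cell markers 597 CPM in benign 1. For muscle and brown fat, fits without the muscle-rich samples and with covariates are given below, and the part of the other cell types in the differences was not tested. Erbb2, the gene for HER2, had a log2 fold change of 7.03.

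Many ER chaperone genes carry the ER stress response element (ERSE), made of CCAAT, 9 bases of any kind and CCACG, which binds NF-Y and ATF6. RefSeq promoter windows on GRCm38.p6, from 250 bases before to 50 bases after the transcription start, were matched for 37 of the 44 genes. The windows for Atf6, Hyou1, Spcs3, Sec61a1, Ssr2, Manf and Derl1 were not analysed here. The exact element, searched on both strands, stood in the window of 9 of the 37 genes (24.3%) and in 0.119% of all 32851 windows. These 9 were among the 37 genes in all that held it. They were the chaperone genes Hspa5, Hsp90b1, Calr, Canx, Pdia6, Dnajc3 and Creld2 and the degradation genes Syvn1 and Derl3. As the element is known from ER chaperone genes, its share among the 37 is a description and not a test. The shorter ERSE-II, made of ATTGG, 1 base and CCACG, stood in Herpud1 and Dnajb11 and in 0.0365% of all windows. Single CCAAT and CCACG motifs, which lie inside the ERSE, were found in 37.4% and 32.8% of all windows. The UPR element TGACGTGG, found in 0.676% of all windows, matched none of the 37, and its shorter core GACGTGG, found in 2.42%, matched Pdia6, Edem3 and Ssr1.

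The windows are printed because they set the genes with an ERSE apart by sequence, in full for Hspa5 and Derl3, with the motif ends in capitals and 5′ to 3′ on the strand of the gene. An element in the opposite orientation reads CGTGG, 9 bases and ATTGG. Hspa5 lies at chr2:34771840-34772139, plus strand, and Derl3 at chr10:75893148-75893447, plus strand.
Hspa5: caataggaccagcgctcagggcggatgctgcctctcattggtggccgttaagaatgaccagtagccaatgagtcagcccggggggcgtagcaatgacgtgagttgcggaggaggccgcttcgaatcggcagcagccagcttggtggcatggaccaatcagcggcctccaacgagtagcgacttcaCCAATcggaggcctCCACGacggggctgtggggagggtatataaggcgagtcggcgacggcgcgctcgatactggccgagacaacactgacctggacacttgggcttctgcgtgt
Derl3: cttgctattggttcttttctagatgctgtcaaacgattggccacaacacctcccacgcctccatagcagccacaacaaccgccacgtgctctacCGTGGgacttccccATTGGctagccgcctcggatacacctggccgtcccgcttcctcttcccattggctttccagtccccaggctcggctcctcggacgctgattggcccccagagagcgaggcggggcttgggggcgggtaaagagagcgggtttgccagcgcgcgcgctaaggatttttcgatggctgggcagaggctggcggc

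Hsp90b1 held a forward and a reverse copy within the stretch chr10:86705513-86705676, minus strand, shown with 20 bases on each side.
Hsp90b1: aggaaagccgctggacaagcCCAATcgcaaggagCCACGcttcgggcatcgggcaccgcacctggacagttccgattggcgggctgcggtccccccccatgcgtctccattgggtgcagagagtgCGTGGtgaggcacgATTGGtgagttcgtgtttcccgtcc

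The other chaperone genes held a single copy each, in the stretches of Calr (chr8:84847055-84847113, minus strand), Canx (chr11:50325780-50325838, minus strand), Dnajc3 (chr14:118937807-118937865, plus strand) and Creld2 (chr15:88819500-88819558, plus strand).
Calr: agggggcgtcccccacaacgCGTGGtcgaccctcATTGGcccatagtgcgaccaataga
Canx: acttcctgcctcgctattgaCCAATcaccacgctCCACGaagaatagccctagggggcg
Dnajc3: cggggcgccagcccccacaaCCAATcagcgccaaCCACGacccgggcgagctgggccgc
Creld2: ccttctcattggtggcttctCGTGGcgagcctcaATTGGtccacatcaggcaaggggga

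Pdia6 (chr12:17266471-17266529, plus strand) and Syvn1 (chr19:6046512-6046570, plus strand) are shown because they held the element but were not called.
Pdia6: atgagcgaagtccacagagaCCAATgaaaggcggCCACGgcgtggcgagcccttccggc
Syvn1: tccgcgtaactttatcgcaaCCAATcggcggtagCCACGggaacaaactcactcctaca

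Herpud1 (chr8:94386357-94386407, plus strand) and Dnajb11 (chr16:22857832-22857882, plus strand) held the ERSE-II.
Herpud1: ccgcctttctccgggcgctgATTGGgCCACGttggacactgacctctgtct
Dnajb11: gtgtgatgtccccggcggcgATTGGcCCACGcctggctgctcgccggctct

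Of the 9 genes with an ERSE, 7 were called higher in tumors, with log2 fold changes from 0.40 for Canx to 3.84 for Derl3. Pdia6 had a log2 fold change of 0.20 (SE 0.20) and Syvn1 of 0.00 (SE 0.12). Of the 28 genes with a window but no ERSE, 18 were called higher, and of all genes tested 28.2% were. The match of letters is a description of these windows and not a measure of binding.

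Of the 15 chaperones, 12 were called higher, and 8 when the muscle marker score and Ucp1 entered the fit (22.4% of all genes there). Their summed level was 3232 to 4719 CPM in benign samples and 4662 to 7611 CPM in tumors, where tumor 5 lay below benign 3, with 0.70 as the median log2 fold change of the 15. Hspa5 (BiP), the HSP70 chaperone that also holds the sensors silent, lies at chr2:34771970-34777547 on GRCm38. It measured 411 CPM at the lowest, 519 at the median and 713 at the highest in benign samples, and 589, 979 and 1354 CPM in tumors. Tumors 1 to 4 were above every benign sample, and tumors 5 and 6, at 692 and 589 CPM, lay within the benign range. The log2 fold change was 0.82 (SE 0.22, adjusted p = 0.0061 by edgeR), and the exact two-sided permutation p of the mean log2 CPM was 0.0108.

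Hsp90b1 (GRP94), the HSP90 of the ER, did not overlap between groups. It ran from 491 CPM over a median of 564 to 722 CPM in benign samples and from 756 over 1170 to 1535 CPM in tumors. Its log2 fold change was 0.93 (SE 0.20, adjusted p = 0.0017 by edgeR). Pdia3 (ERp57), the disulfide isomerase that works with the lectins calnexin and calreticulin, had 348, 405 and 522 CPM as lowest, median and highest benign values and 596, 841 and 984 CPM in tumors. Its groups did not overlap either, with a log2 fold change of 0.91 (SE 0.16, adjusted p = 0.00042 by edgeR). Sdf2l1, a stress-induced partner of ERdj3 and BiP, showed the largest chaperone fold. Benign tissue held 10.4 CPM at the lowest, 17.0 at the median and 23.0 at the highest, and tumors 17.8, 42.5 and 51.2 CPM. Tumors 5 and 6 fell inside the benign range, and the log2 fold change was 1.16 (SE 0.30, adjusted p = 0.0051 by edgeR).

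The other chaperones called higher were Pdia4 (log2 fold change 0.78), Dnajc3, the BiP co-chaperone and PERK inhibitor P58IPK (0.72), Hyou1, the nucleotide exchange factor of BiP (0.71), Calr, calreticulin (0.70), the secreted stress proteins Manf (0.63) and Creld2 (0.60), P4hb, protein disulfide isomerase (0.53), and Canx, calnexin (0.40). Dnajc3 did not overlap between groups, at 108 ± 10.1 CPM in benign and 179 ± 41.4 CPM in tumor samples (means ± SD, n = 6). The others did overlap. Calr held 653 ± 115 CPM against 1057 ± 233 CPM, where tumor 5, at 617 CPM, stood within the benign range and the other tumors above it. Canx was at 324 ± 35.4 CPM against 428 ± 49.8 CPM, and Manf at 86.4 ± 18.3 CPM against 134 ± 41.9 CPM, with tumors 5 and 6 of Manf inside the benign range. Not called were Pdia6 (0.20, adjusted p = 0.42), Dnajb11 (0.16, adjusted p = 0.22) and Dnajb9 (0.07, adjusted p = 0.78, all by edgeR). Dnajb9, the co-chaperone ERdj4 and a known XBP1 target, had its highest benign values in benign 4 and 6, at 71.4 and 73.0 CPM. In benign 3, also muscle-rich, it was at 55.0 CPM. Against benign 1, 2 and 5 alone Dnajb9 was called higher, with an adjusted p of 0.097 by edgeR and a log2 fold change of 0.43.

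Scaled to transcript length, calreticulin was the most abundant of the 44 transcripts in both groups, at 299 ± 52.8 CPM per kb in benign and 484 ± 107 CPM per kb in tumor samples (means ± SD, n = 6). Hsp90b1 followed at 211 ± 34.2 and 402 ± 117 CPM per kb. Next in benign samples came P4hb (173 ± 33.7), Pdia3 (155 ± 26.9) and Hspa5 (148 ± 31.8 CPM per kb), which differed from each other by less than their spread. In tumors Xbp1, at 341 ± 146 CPM per kb, came after Hsp90b1 and ahead of Pdia3 (292 ± 55.3) and Hspa5 (261 ± 78.5 CPM per kb), again within the spread.

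The tumors were not alike in their chaperones. In 12 of the 15 chaperones the lowest tumors were tumors 5 and 6, and tumor 6 was among the lowest pair in all 15. Tumor 1 or tumor 2 was the highest in 13 of 15. The summed chaperone level was 4662 and 4771 CPM in tumors 5 and 6, near the 4719 CPM of benign 3, and 6228 to 7611 CPM in tumors 1 to 4. Epithelial markers summed to 4368 CPM in tumor 5, the highest of all samples, and to 3245 CPM in tumor 6. Krt18, at 1526 CPM, and Krt8, at 968 CPM, made up much of the sum in tumor 5. Both were the highest of all samples there. Cldn3, at 344 CPM, was instead the lowest of the tumors, and Epcam, Cdh1, Cldn4, Cldn7 and Krt19 lay in the lower part of the tumor range. The summed translocation level spanned 1259 to 1484 CPM over the 6 tumors.

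**Figure D2:**
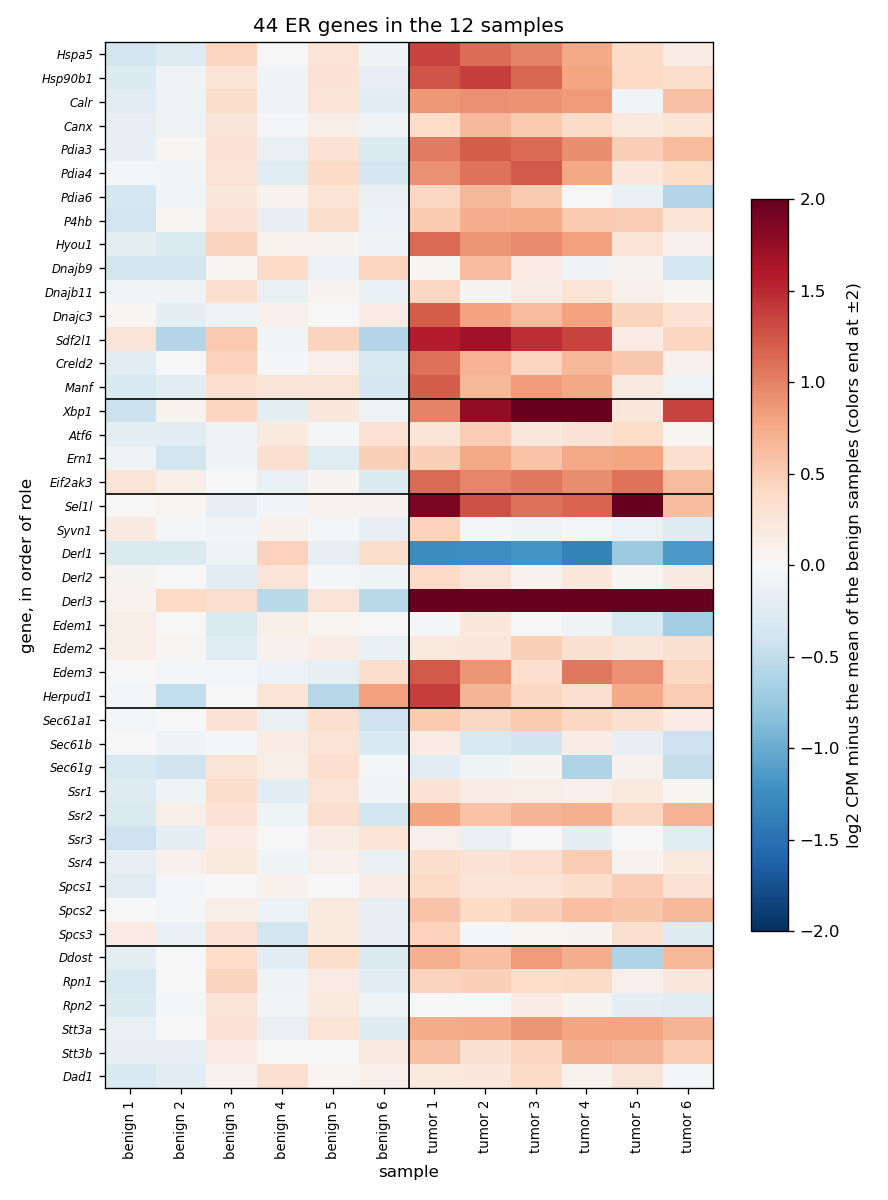
Each cell shows the log2 CPM of a gene in a sample minus the mean of the 6 benign samples, with red above and blue below, columns by sample, rows by role and black lines between roles. The chaperone block at the top is darkest in tumors 1 to 4 and pale in tumors 5 and 6, and the Derl1 row is blue in all 6 tumors.

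All 4 genes of the sensor group were higher in tumors. Xbp1, the transcription factor whose mRNA IRE1 splices, showed the largest change of the group. Benign tissue ran from 183 CPM over a median of 248 to 333 CPM, and tumors from 290 over 737 to 1095 CPM. Tumor 5 lay within the benign range and the other 5 tumors above it. On the log2 scale the difference was 1.53 (SE 0.29, adjusted p = 0.00061 by edgeR) and 1.75 without tumor 5. Counts per gene do not separate the spliced from the unspliced mRNA.

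Eif2ak3 (PERK), the kinase that phosphorylates eIF2α, was higher in every tumor. It measured 27.9 CPM at the lowest, 34.1 at the median and 40.4 at the highest in benign samples and 52.7, 68.5 and 74.3 CPM in tumors, with no overlap. The log2 fold change was 0.97 (SE 0.12, adjusted p = 1.3e-05 by edgeR). Ern1 (IRE1α), the kinase and RNase, had 25.2, 30.8 and 45.4 CPM in benign samples and 41.3, 52.0 and 56.5 CPM in tumors. Tumor 6 fell below benign 6, the others lay above all benign samples, and the log2 fold change was 0.60 (SE 0.15, adjusted p = 0.0053 by edgeR). Atf6 overlapped widely, at 46.8, 52.3 and 66.6 CPM against 55.2, 65.6 and 76.6 CPM. Its log2 fold change of 0.27 (SE 0.11, adjusted p = 0.060 by edgeR) passed the threshold by little, and the adjusted p became 0.11 without benign 3 and 0.14 with a replicate block. Per kilobase of transcript, Xbp1 stood at 118 ± 24.9 CPM per kb in benign samples and 341 ± 146 in tumors (means ± SD, n = 6), while the 3 sensors themselves were at 4.81 to 7.54 CPM per kb in benign samples and 7.27 to 14.8 in tumors.

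Degradation factors diverged most. Derl3, a derlin that takes part in pulling chains out of the ER and is known from secretory cells, lies at chr10:75893413-75895941 on GRCm38. It was nearly silent in benign tissue, with 1.24 CPM at the lowest, 2.21 at the median and 2.63 at the highest, and reached 9.77, 28.6 and 63.0 CPM in tumors. Every tumor lay above every benign sample, and the log2 fold change was 3.84 (SE 0.44, adjusted p = 9.5e-06 by edgeR). Plasma cells are known for high Derl3 and Xbp1. Of 8 listed plasma cell markers 5 were in the count table, and the immunoglobulin genes Igkc, Igha and Ighm were not. The 5 measured markers summed to 38.8 to 85.3 CPM in tumors and 63.2 to 181 CPM in benign samples. Most of that sum was Sdc1, which epithelium also expresses, at 33.2 to 81.1 CPM in tumors. Jchain was at most 0.688 CPM in any tumor, Irf4 at most 0.963 CPM, and Tnfrsf17 was at 0 counts in 5 of 6. In benign samples Jchain ran from 0.999 to 15.7 CPM and Irf4 from 3.56 to 26.3 CPM. Pou2af1 had a median of 1.83 CPM in tumors and 0.626 CPM in benign samples and was not called. The part of plasma cells in the differences of Derl3 and Xbp1 was not tested.

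Sel1l, the scaffold of the HRD1 ubiquitin ligase complex, lies at chr12:91806043-91849157. Benign samples were tightly grouped, with 115 CPM at the lowest, 130 at the median and 137 at the highest. Tumors had 197, 298 and 1603 CPM, so all were above the benign samples, and tumor 5 was 5.58 times the median of the other tumors. Its log2 fold change was 2.03 (SE 0.46, adjusted p = 0.0022 by edgeR), and it fell to 1.33 without tumor 5 (adjusted p = 7.5e-05). Syvn1 (HRD1), the ligase that SEL1L holds, ranged from 75.1 to 95.8 CPM in benign samples and from 70.5 to 116 CPM in tumors and was not called (log2 fold change 0.00, adjusted p = 0.99 by edgeR).

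Derl1, the other derlin with a large difference, moved the opposite way. At chr15:57869502-57892448, it had 142 CPM at the lowest, 160 at the median and 240 at the highest in benign samples and 68.3, 75.1 and 105 CPM in tumors. The groups did not overlap, and the highest benign values were those of benign 4 and 6. Benign 3, also muscle-rich, was at 165 CPM. Brown fat markers summed to 2955 and 807 CPM in benign 4 and 6 and to 178 CPM in benign 3. The cause of this spread was not tested. On the log2 scale the difference was -1.17 (SE 0.16, adjusted p = 4.8e-05 by edgeR), and -0.85 (adjusted p = 0.00049) against benign 1, 2 and 5 alone. Derl2 measured 57.1 ± 6.6 CPM in benign and 65.3 ± 6.2 CPM in tumor samples (means ± SD, n = 6) and was not called (log2 fold change 0.19, adjusted p = 0.12 by edgeR). On the per-length scale Derl1 had 56.2 ± 13.4 CPM per kb and Derl3 1.52 ± 0.47 in benign samples, against 24.9 ± 4.1 and 22.2 ± 14.3 in tumors, where the gap between them was smaller than the spread of Derl3.

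Of the lectin-like EDEM proteins, which hand misfolded glycoproteins to degradation, Edem3 rose (log2 fold change 0.83, adjusted p = 0.00065), Edem2 rose less (0.29, adjusted p = 0.021), and Edem1 had -0.13 (adjusted p = 0.44, all by edgeR). Edem3 was at 43.1 ± 5.9 CPM in benign and 76.7 ± 18.1 CPM in tumor samples (means ± SD, n = 6), and tumor 3, at 53.8 CPM, alone lay below the highest benign sample. Edem2 did not overlap between groups, although its means were 53.1 ± 5.8 and 64.8 ± 4.6 CPM. Herpud1, a stress-induced partner of the HRD1 complex, was called higher (log2 fold change 0.65, adjusted p = 0.040 by edgeR). Its benign values were spread from 55.9 to 146 CPM, the highest in benign 6, and against benign 1, 2 and 5 alone its log2 fold change was 1.12.

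**Figure D3:**
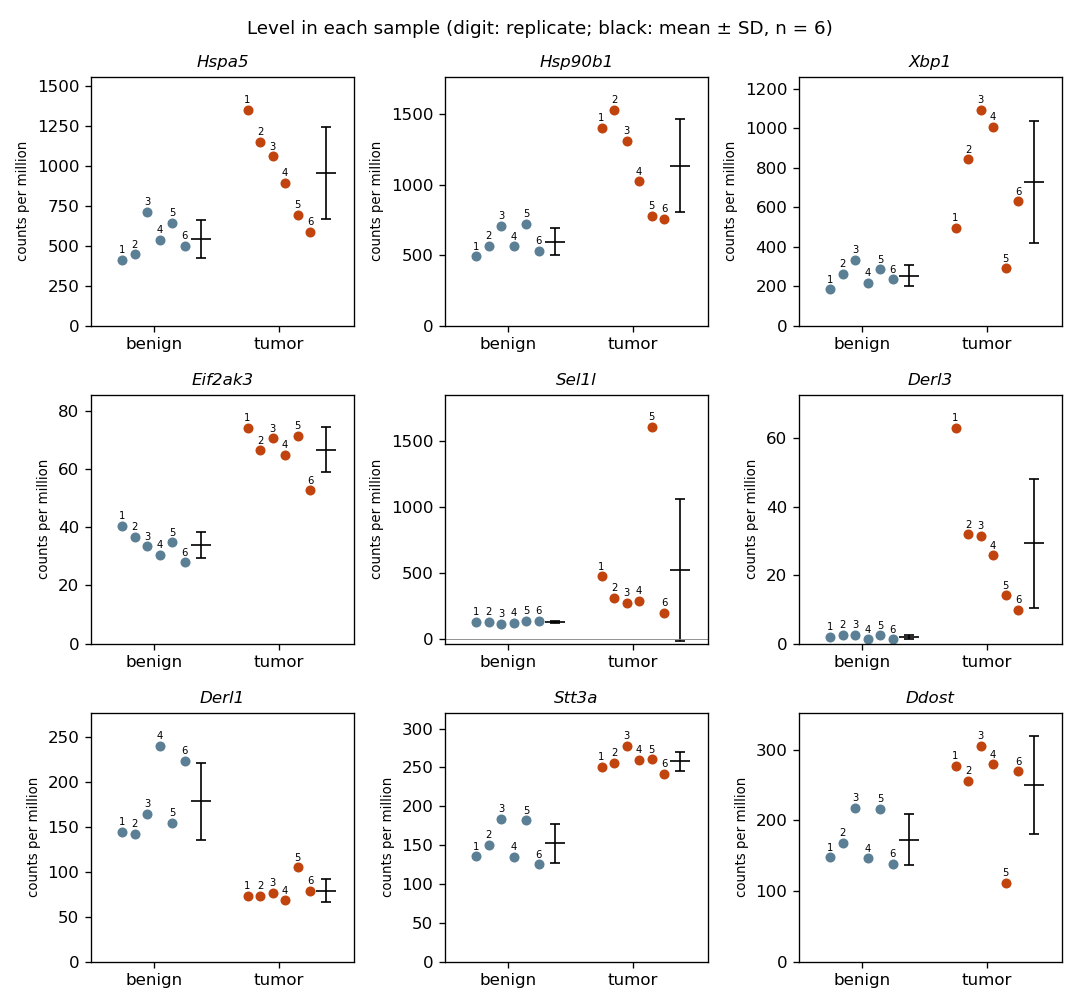
CPM of 9 of the genes in each of the 6 benign samples (blue) and 6 tumors (orange), with the replicate number above each point and the mean ± SD in black. Tumor 5 sits at 1603 CPM for Sel1l and at 111 CPM for Ddost, and Derl1 is lower in every tumor than in any benign sample.

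The translocation machinery split. Called higher were 5 of its 10 subunits, with 0.21 as the median log2 fold change of the 10. Ssr2, a subunit of the translocon-associated TRAP complex, had 91.1, 119 and 147 CPM as lowest, median and highest benign values and 156, 190 and 204 CPM in tumors. Spcs2, a signal peptidase subunit, had 100, 112 and 129 CPM against 149, 167 and 180 CPM. In both genes the groups did not overlap, with log2 fold changes of 0.63 (SE 0.14, adjusted p = 0.0016) for Ssr2 and 0.54 (SE 0.09, adjusted p = 0.00026, both by edgeR) for Spcs2. Sec61a1, the pore subunit, had 122, 159 and 202 CPM in benign samples and 181, 216 and 234 CPM in tumors. Tumors 5 and 6 lay within the benign range, and the log2 fold change was 0.38 (SE 0.13, adjusted p = 0.028 by edgeR).

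Spcs1 (log2 fold change 0.34) and Ssr4 (0.29) were also called higher. Spcs1, another signal peptidase subunit, was at 85.0 ± 7.5 CPM in benign and 108 ± 6.5 CPM in tumor samples (means ± SD, n = 6) without overlap, and in Ssr4, a TRAP subunit, tumor 5 alone lay below the highest benign sample. The small channel subunits had log2 fold changes of -0.16 for Sec61b and -0.22 for Sec61g, and Ssr1 (0.13), Ssr3 (-0.10) and Spcs3 (0.10) were likewise not called. The 3 channel subunits form 1 pore. Per kilobase Sec61b stood at 79.7 ± 11, Sec61a1 at 51.8 ± 9.7 and Sec61g at 3.66 ± 0.77 CPM per kb in benign tissue (means ± SD, n = 6). The lengths are those of the principal transcript in GENCODE M21, and the transcripts the tissue uses may differ.

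Oligosaccharyltransferase rose in its catalytic subunits. Stt3a, whose enzyme form sits at the channel and glycosylates chains as they enter, had 125, 143 and 184 CPM as lowest, median and highest benign values and 242, 258 and 278 CPM in tumors. Stt3b, whose form acts after entry, had 156, 174 and 197 CPM against 215, 255 and 287 CPM. Neither gene overlapped between groups, with log2 fold changes of 0.76 (SE 0.12, adjusted p = 0.00011) for Stt3a and 0.54 (SE 0.11, adjusted p = 0.00092, both by edgeR) for Stt3b. Rpn1 (0.32, adjusted p = 0.063) was called higher, while Dad1 (0.17, adjusted p = 0.22) and Rpn2 (-0.04, adjusted p = 0.79, all by edgeR) were not.

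Ddost, the subunit OST48 at chr4:138304730-138312628, had 138, 158 and 218 CPM in benign samples and 111, 273 and 306 CPM in tumors. Tumor 5 was the lowest of all 12 samples, and the other 5 tumors were above every benign sample. The log2 fold change was 0.53 (SE 0.22, adjusted p = 0.054 by edgeR) and 0.75 without tumor 5 (adjusted p = 0.00095). The exact two-sided permutation p of the mean log2 CPM was 0.093. With benign 4 or benign 6 left out the adjusted p by edgeR was 0.10. Against benign 1, 2 and 5 alone it was 0.15, and with the muscle score and Ucp1 as covariates it was 0.59.

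In tumor 5 most genes of chromosome 4, which holds Ddost, were low beside the other tumors. The cause was not tested. Among the 646 genes of chromosome 4 with a mean of at least 10 CPM in tumors, the median level in tumor 5 was 0.544 times the median of the other tumors, and tumor 5 was the lowest tumor for 86.2% of them, against 25% of all 9953 such genes. On the other 19 chromosomes the same median ran from 0.997 to 1.51 in tumor 5. Ddost itself stood at 0.402 times, while Sec61b, the other ER gene on chromosome 4, was at 1.1 times. The 1.51 belonged to chromosome 15, where Derl1 was at 1.43 times and Creld2 at 0.918 times. In the other 5 tumors the medians lay between 0.947 and 1.07, except for 1.43 on chromosome 5 in tumor 1, which holds none of the 44 genes. For Sel1l, chromosome 12 was at 1.05 in tumor 5, and the 3 neighbours within 1 Mb of the gene were at 0.777 to 1.27. Low Xbp1 (0.344 times) and Sdf2l1 (0.401 times) in tumor 5 stood on chromosomes with medians of 1.02 and 1.07.

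**Figure D4:**
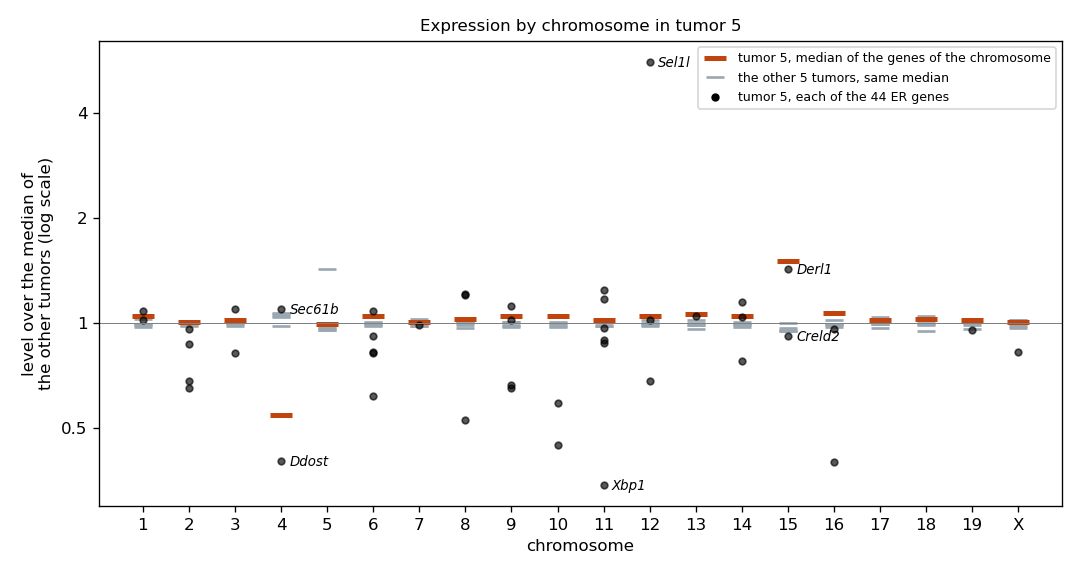
The level in tumor 5 over the median of the other tumors, on a log scale, as the median of the genes of each chromosome (orange bars) and for each of the 44 ER genes (black points), with the same medians for each of the other tumors in grey. Chromosome 4 lies at 0.544 and chromosome 15 at 1.51, and Sel1l at 5.58 stands alone on a chromosome at 1.05.

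Most rises were also called without the muscle-rich benign samples. Against benign 1, 2 and 5 alone, 31 of the 44 genes were called higher and Derl1 lower, with a median log2 fold change of 0.54. Of all genes tested there, 26.7% were called higher and 28.7% lower. Ddost lost its call in that fit, and Dnajb9 and Dad1 gained one. When the muscle marker score and the level of Ucp1 entered the fit as covariates, 22 of the 44 were called higher and Derl1 lower. Calls over all genes were also fewer in this fit, at 22.4% higher and 26.4% lower, beside 28.2% and 34.8% in the main fit. There 9 genes lost their call and Dad1 gained one. The log2 fold changes of the 9 in this fit were 0.55 for Calr, 0.52 for Pdia4, 0.92 for Sdf2l1 and 0.66 for Manf. For the others they were 0.20 for Edem2, 0.25 for Sec61a1, 0.20 for Ssr4, 0.21 for Ddost and 0.29 for Rpn1.

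**Figure D5:**
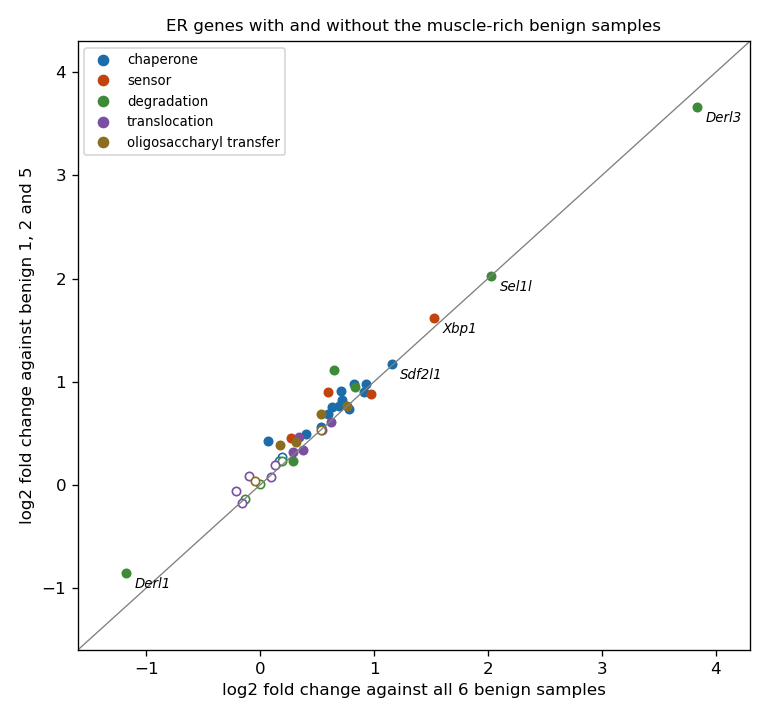
The log2 fold change of each of the 44 genes with all 6 benign samples (x axis) and with benign 1, 2 and 5 only (y axis), with open circles where the adjusted p on the y axis was 0.1 or more. Points lie near the line of equality, and Derl1 moves from -1.17 to -0.85.

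Other genes of the same pathways were read from a list of 74, of which 28 (37.8%) were called higher and 11 lower, beside 28.2% and 34.8% of all genes tested, with a median log2 fold change of 0.12. The smaller groups below are read against the same shares, and several lie near them. Among 12 genes of signaling downstream of the sensors, 7 were called higher and 0 lower. Trib3, a pseudokinase induced by ATF4 and CHOP, showed the largest rise of the 74, from 8.29 ± 2.13 to 66.8 ± 28.8 CPM (means ± SD, n = 6), with a log2 fold change of 3.01 (adjusted p = 1.0e-06 by edgeR). Creb3l4, an ER-bound transcription factor, had a log2 fold change of 1.80 (adjusted p = 0.031 by edgeR) with overlapping groups. Its highest tumor was tumor 5, at 40.3 CPM, and without it the log2 fold change was 0.90 and the call was lost (adjusted p = 0.11 by edgeR). Atf4, Ddit3 (CHOP) and Ppp1r15a (GADD34), which translation and transcription downstream of PERK are known to raise and which were chosen after their values were seen, had log2 fold changes of -0.31, -0.29 and -0.26 and were not called. In Atf4, 5 tumors lay below the lowest benign value of 131 CPM, and 1, at 238 CPM, lay above the highest of 208 CPM. In Ddit3 3 tumors lay below and 1 above all benign samples, and in Ppp1r15a 2 below and 1 above. Of 13 other folding enzymes 3 (23.1%) were called higher and 1 lower, no more than among all genes. The oxidase Ero1a, which recharges disulfide isomerases, was called higher (log2 fold change 1.57, adjusted p = 4.2e-05), and the isomerase Pdia5 had -1.64 (adjusted p = 3.3e-05, both by edgeR). Both genes had groups that did not overlap.

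Of the 10 genes of the ER membrane complex, which inserts membrane proteins apart from the Sec61 channel, 4 were called lower by edgeR, near the 34.8% of all genes, and these did not overlap between groups, beside 21.2% of all genes, while 0 were called higher (0 at an unadjusted p under 0.05, and 1 by DESeq2). Emc9 fell from 28.1 ± 8.1 to 9.17 ± 1.29 CPM (log2 fold change -1.61) and Emc2 from 89.9 ± 20.4 to 41.8 ± 7.7 CPM (log2 fold change -1.10, means ± SD, n = 6). Signal recognition genes were called higher in 3 of 8 and lower in 1, channel partners and signal peptidase in 3 of 7 and 1, accessory oligosaccharyltransferase subunits in 5 of 6 and 0, glycan trimming genes in 3 of 6 and 0, and other degradation genes in 4 of 12 and 4. The counts of 0 genes called lower in the signaling, accessory and glycan trimming groups by edgeR were also 0 at an unadjusted p under 0.05 and by DESeq2.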

How the data were processed

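RNA of 12 mammary samples (6 benign, 6 tumors) was analysed, grouped by the sample titles. Per the labels and the paper, the authors extracted RNA with TRIzol, enriched poly A RNA, trimmed reads with Trim Galore, quantified transcripts with Salmon on mm10 and used DESeq2. The values are estimated counts, which the authors deposited per gene as unscaled whole numbers. Tool versions and the annotation were not given in the sources used here. The table had 16411 genes, each with at least 5 counts in total, and 0 columns without a sample. The paper calls the 6 samples of a group biological replicates, and the labels do not say whether any of them shared a mouse. Every replicate pair differed by more than sampling noise (smallest chi-square per degree of freedom 13.0 in benign and 17.2 in tumor samples).

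Genes were filtered with filterByExpr of edgeR 4.0.16 in R 4.3.3 (minimum count 10, minimum total count 15), which left 13191, and scaled by TMM. Groups were compared with edgeR's quasi-likelihood test, two-sided, and p-values were adjusted by Benjamini-Hochberg over all genes tested. The threshold of 0.1 follows the study. Standard errors were taken from the fold change and its F value. For log2 CPM, 2 counts were added. Exact permutation tests ran over 924 regroupings, and the smallest p they allow is 0.00216. The edgeR test was tried on simulated counts first.

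The 44 genes, the 74 other ER genes and the markers were chosen with earlier results of these data known. Values by sample are given for Hspa5, the sensors with Xbp1, and the 3 called genes with the largest change in each other role. Of the other ER genes, the 3 largest called rises and falls are named. Levels per kilobase used the longest principal transcript of GENCODE M21, on GRCm38, the assembly mm10 names. Promoter windows came from RefSeq (GRCm38.p6), and motifs were searched as exact letters. Alternatives were DESeq2 1.42.0, upper-quartile scaling, scaling to total counts alone and filters of at least 1 count in total or 10 in each sample. Others were a 0.05 threshold, a block for the replicate number and fits without single samples or without benign 3, 4 and 6. A further fit had muscle covariates (the mean log2 CPM of 10 muscle markers, with Ucp1).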

Additional observations from a re-analysis of the deposited data

Results flagged for a closer look

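Dixon's ratio, taken on log2 CPM, is the gap from the most extreme sample to its neighbour over the range of the group. It exceeded its critical value in 6 of 88 tests (44 genes in 2 groups), where chance alone flags about 1 in 20 groups. The levels printed beside the ratios are in CPM, on which the ratios would differ. Tumor 5 gave 3 of the 6. It was low among tumors for Ddost (0.824, at 111 CPM with the next tumor at 256 CPM) and Calr (0.67, 617 against 971 CPM), and high for Derl1 (0.675, 105 against 78.5 CPM). Syvn1 was high in tumor 1 (0.669, 116 against 83.2 CPM). Edem1 was low in benign 3 (0.682, 70.8 against 86.6 CPM), and Edem3 was high in benign 6 (0.681, 54.5 against 42.8 CPM). Benign 3 and 6 are, with benign 4, the samples rich in skeletal muscle transcripts. Edem1 was at 94.8 CPM in benign 4 and 87.5 CPM in benign 6, and Edem3 at 42.1 CPM in benign 3 and 39.4 CPM in benign 4. The cause was not tested. The 1603 CPM of Sel1l in tumor 5 did not reach the critical value on the log2 scale.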

How the results depend on the processing

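Derl1 was the single gene called lower under every alternative run, while the 44 genes kept a median log2 fold change between 0.49 and 0.62. Of the 31 called genes, 21 kept their call under every alternative in which they were tested (Derl3 was not tested under the filter of 10 counts in every sample), and 28 did when the fit with muscle covariates is set aside. Atf6, Ddost and Rpn1 were the exceptions. Of the 13 genes not called, 8 were never called, and Pdia6, Dnajb9, Dnajb11, Derl2 and Dad1 were called under at least 1 alternative. With the muscle covariates 22 of the 44 genes were called higher, beside 22.4% of all genes. The number was between 28 and 34 when each sample was left out, beside 26.6% to 31.5% of all genes. Covariates reduced the genes called higher from 12 to 8 chaperones, 5 to 4 degradation factors, 5 to 3 translocation subunits and 4 to 3 oligosaccharyltransferase subunits, and the cause was not tested. Among oligosaccharyltransferase subunits, 2 of 4 stayed past a threshold of 0.05, and leaving out each sample gave 2 to 5, the 2 without benign 6.

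The samples share replicate numbers across groups but come from different mice. The same-numbered deviations correlated between -0.12 and 0.10, and no benign sample correlated best with its own number. With the replicate block, 28 of the 44 were called higher, beside 26.3% of all genes, and Atf6 and Ddost lost their call. Derl3, the gene with the lowest counts, had at least 7 in every sample.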
